A study of Mus musculus with 4 samples.

Results

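The signal of an antibody against cyclobutane pyrimidine dimers (CPD) was compared, sequence by sequence, with that of an antibody against 6-4 photoproducts (6-4PP) on irradiated DNA. The arrays were chosen by antibody and by the condition field of the labels, which gave 2 of the 4 arrays of the series, the CPD UV array and the 6-4PP UV array. The other 2 arrays carried the same antibodies on DNA that was not irradiated, and they serve here as the background measured in the same way. On the CPD UV array a mouse antibody against CPD was used at a dilution of 1 in 400 on irradiated probes, and on the 6-4PP UV array a mouse antibody against 6-4PP was used at 1 in 80. The CPD non-UV array and the 6-4PP non-UV array had the same antibody dilutions without irradiation. The probes were synthetic DNA and not mouse genes, although the labels name the mouse as organism. The titles of the 6-4PP arrays carry the opposite condition from their condition field, and the field was followed here. By the field the irradiated 6-4PP array was the bright one, with a median intensity of 15690.2 against 56.5. The sources used here state neither the UV dose nor how the arrays were scanned. Each group held 1 array, so no difference between the antibodies has a replicate array behind it and none was tested.

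Ultraviolet light joins neighbouring pyrimidines (T or C) of a DNA strand. In a CPD the neighbouring bases share a cyclobutane ring, whereas in a 6-4PP a single bond links the bases and the helix is bent more. Both block polymerases and are cut out by nucleotide excision repair, which removes 6-4PP faster, and both give rise to the C-to-T changes known from sun-exposed skin. The probes were built around binding sites of MITF, the regulator of melanocyte genes, of TBP, which binds the TATA box, and of p53, the tumour suppressor activated by DNA damage.

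A dipyrimidine step is here a pair of neighbouring pyrimidines on either strand of a probe, read 5′ to 3′ as TT, TC, CT or CC. A pyrimidine pair on the opposite strand shows in the listed strand as a purine pair (AA for TT, GA for TC, AG for CT, GG for CC). The library held 5480 sequences, 2248 of 59 bases and 3232 of 60 bases, in 27 libraries. In 21 of them 4 neighbouring bases were varied, and in 6 of them dipyrimidines were set at 3 positions of the listed or the opposite strand. Each sequence is given by the median fluorescence intensity of its spots, mostly 10. Since the antibodies were diluted differently, each array was put on its own scale, on which the log2 intensity is given in SD units from the array mean, and percentiles are taken over the 5480 sequences of the array. The difference always means the CPD value minus the 6-4PP value in these SD units, so that a positive one marks a sequence that stands higher with CPD. It compares places within 2 arrays and not amounts of photoproduct.

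Intensity spanned 972.5 to 22435 with CPD, with a median of 4328.75, and 2635 to 65535 with 6-4PP, with a median of 15690.2. On the non-UV arrays the median was only 30 with CPD and 56.5 with 6-4PP. Spots with no identifier had 28 and 30 there. Non-UV values thus lie in a narrow range of low intensity, which limits every comparison with them. The 6-4PP UV array reached the highest recordable intensity of 65535 for 309 sequences, whose 6-4PP value is a lower bound and whose difference is an upper bound. The SD of log2 intensity between sequences was 0.78 with CPD and 1.02 with 6-4PP. Spots of the same sequence had a median SD of 0.61 with CPD and 0.29 with 6-4PP. The local median around a spot ran from 1111 to 8004 with CPD and from 7688 to 23625 with 6-4PP. For 640 sequences printed under more than 1 name, the difference under both names correlated with a Spearman rho of 0.86 and differed by a median of 0.28 SD units. The spot standard error of a difference had a median of 0.32.

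The sequences below carry the ends of the comparison. Capitals mark the dipyrimidine steps of either strand, and all sequences are written 5′ to 3′ as deposited, apart from the case of the letters. The first 5 had the highest differences below the intensity ceiling, and each holds at least 1 TT.
TBP_MUT_59_TTTT: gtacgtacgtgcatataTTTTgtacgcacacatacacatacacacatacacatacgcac
TBP_59_ATTT: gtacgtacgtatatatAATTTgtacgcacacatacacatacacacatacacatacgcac
p53_E_mut_60_TGCT: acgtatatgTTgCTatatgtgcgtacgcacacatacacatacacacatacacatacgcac
p53_E60_GTTG: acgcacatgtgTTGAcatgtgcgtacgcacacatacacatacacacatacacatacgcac
TBP_P6_CT&P12_TT&P18_TT: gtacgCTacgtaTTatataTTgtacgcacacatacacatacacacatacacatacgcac
The next 5 had the lowest differences below the ceiling, and each holds 1 TC, on the listed strand or as GA.
TBP_MUT_E59_CCGA: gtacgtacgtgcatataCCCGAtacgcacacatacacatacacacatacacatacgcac
MITF_ebox_59_GGCG: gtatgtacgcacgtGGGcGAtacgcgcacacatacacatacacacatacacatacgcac
TBP_E59_CTCA: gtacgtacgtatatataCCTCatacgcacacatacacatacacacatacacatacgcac
MITF_ebox_60_GTAT: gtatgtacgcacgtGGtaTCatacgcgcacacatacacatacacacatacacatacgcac
MITF_Ex_sebox_60_TCAT: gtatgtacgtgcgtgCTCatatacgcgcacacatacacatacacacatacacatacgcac

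A second set shows what stood high or low with both antibodies. The first 3 had the highest mean percentile over both arrays below the ceiling, with 2 TT each. The last 3 had the lowest, and they hold no dipyrimidine and thus no capitals.
MITF_Ex_sebox_59_TTAT: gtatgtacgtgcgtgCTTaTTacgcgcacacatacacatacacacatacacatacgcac
TBP_E59_CAAT: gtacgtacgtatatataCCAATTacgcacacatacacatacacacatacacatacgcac
TBP_MUT_E59_TAAT: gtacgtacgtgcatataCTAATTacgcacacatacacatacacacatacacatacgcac
TBP_E60_GCGT: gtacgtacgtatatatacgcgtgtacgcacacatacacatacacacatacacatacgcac
TBP_60_TACG: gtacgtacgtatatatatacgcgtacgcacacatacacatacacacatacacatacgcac
TBP_60_CGCG|TBP_E60_GCGC: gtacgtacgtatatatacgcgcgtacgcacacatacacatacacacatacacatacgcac

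The antibodies ordered the sequences partly alike. Across the 5480 sequences the CPD and 6-4PP values correlated with a Spearman rho of 0.58 and a Pearson r of 0.57, against a rho of 0.27 for the same antibodies on the non-UV arrays. The points share probes, base composition and the number of dipyrimidines, so the correlation is a description. The Spearman correlation was above 0 in 27 of 27 libraries, from 0.43 in the p53 three-position library of the listed strand to 0.72 in NP_MITF_ebox_60. Sequences with the same number of each kind of step were still ordered alike, with a rho above 0 in 51 of 52 make-ups that had at least 20 sequences and a median of 0.53.

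The number of steps did not remove this likeness either. The Spearman correlation was 0.69 without a dipyrimidine, 0.60 with 1 step, 0.55 with 2, 0.53 with 3, 0.36 with 4 and 0.45 with 5. The 160 sequences without a dipyrimidine ran from 972.5 to 4441 with CPD and from 3237.5 to 8599.5 with 6-4PP. By backbone their rho was 0.56 for MITF, 0.66 for TBP and 0.68 for p53, over 64, 48 and 48 sequences. In these sequences the UV and non-UV arrays of the same antibody correlated with a rho of -0.17 for CPD and -0.37 for 6-4PP.

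**Figure D1:**
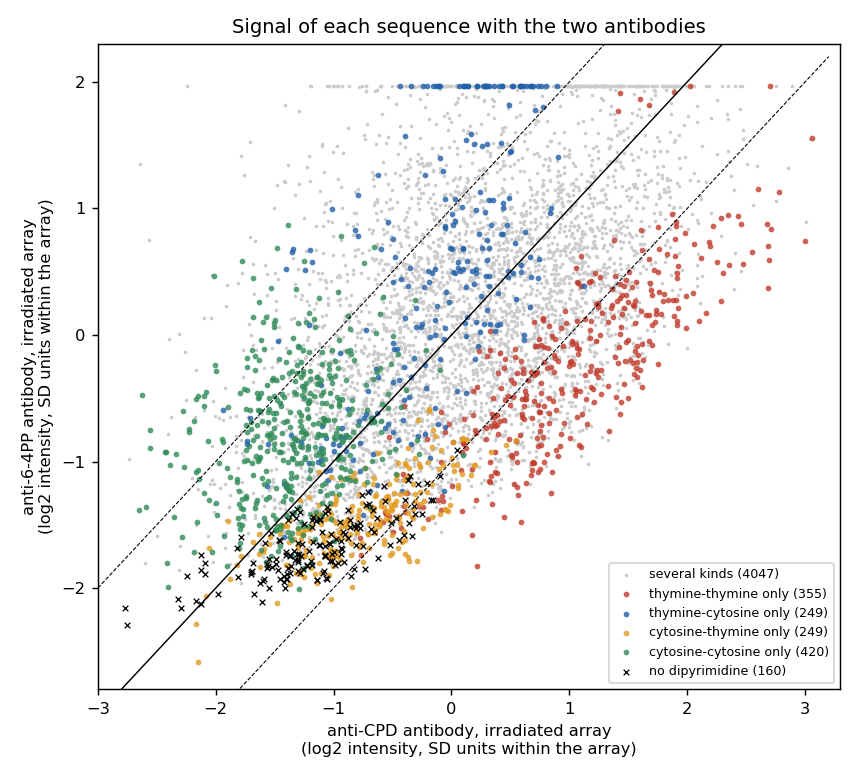
Log2 intensity of each sequence in SD units within its array, with the anti-CPD antibody across and the anti-6-4PP antibody upward, coloured by the kind of dipyrimidine where a sequence holds 1 kind only. The solid line marks equal places and the dashed lines a difference of 1 SD unit; the 355 thymine-thymine sequences lie mostly right of the solid line and the 249 thymine-cytosine sequences mostly left of it, and the row of points at the top is the intensity ceiling.

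The brightest sequences held different dipyrimidines with each antibody. Of the brightest 10% of sequences on the CPD UV array, 548 in all, 100% held a TT and 42.3% a TC. Of the brightest 548 on the 6-4PP UV array 56.0% held a TT and 91.6% a TC, against 44.3% and 53.6% of all sequences. The sets shared 147 sequences, or 26.8% of each, where unrelated sets of this size would share about 10% on average. All 147 held a TT, as the whole CPD set did, and 75.5% held a TC. Of the brightest CPD sequences, which all held a TT, 51 lay below the median of the 6-4PP UV array, and 13.7% of these held a TC. Of the brightest 6-4PP sequences 103 lay below the median of the CPD UV array, all with TC and 9.71% with TT. At the dim end the arrays shared 198 of 548 sequences, or 36.1% of each. CC was held by 78.6% of the dimmest CPD sequences and by 32.5% of the dimmest 6-4PP sequences, against 48.4% of all.

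A difference of at least 1 SD unit towards CPD was found for 766 sequences, which is 14.0% of the 5480, and one of at least 1 SD unit towards 6-4PP for 780, or 14.2%. The same rule counted 20.7% towards CPD and 18.9% towards 6-4PP on the non-UV arrays, where SD units stand for a much narrower range of log2 intensity. TT was held by 88.8% of the sequences towards CPD and by 12.4% of those towards 6-4PP. TC was held by 12.9% of the sequences towards CPD and by 83.8% of those towards 6-4PP. The difference was larger than 2 spot standard errors for 765 of the 766 and for 754 of the 780, against 2675 of all 5480. The limit of 1 SD unit nearly fixed these counts, since the median spot standard error was 0.22 towards CPD and 0.43 towards 6-4PP. Of the 780 sequences towards 6-4PP, 178 lay at the ceiling, where the difference is an upper bound. The values nearest the limits were 1.0003 inside and 0.99999 outside towards CPD, and -1.0001 inside and -0.9979 outside towards 6-4PP.

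Read by the content of the sequences, the split followed the kind of step. Of 1259 sequences with TT and without TC, 599 (47.6%) were at least 1 SD unit towards CPD and 2 towards 6-4PP. Of 1769 with TC and without TT, 18 were towards CPD and 559 (31.6%) towards 6-4PP. The 1167 sequences with both TT and TC divided into 81 towards CPD and 95 towards 6-4PP, with a median difference of 0.04. Sequences with CT alone gave 44 of 249 towards CPD and 0 towards 6-4PP, while those with CC alone gave 1 of 420 towards CPD and 95 towards 6-4PP. Sequences without a dipyrimidine had a median difference of 0.53, with 15 of 160 towards CPD. Differences of single kinds can be read against that value.

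Each kind of step went with its own change on each array. A least-squares fit on the count of every kind of step gave, per TT, 0.95 ± 0.28 SD units with CPD and 0.65 ± 0.16 with 6-4PP (SD over 27 libraries). Per TC the values were 0.30 ± 0.14 with CPD and 1.03 ± 0.19 with 6-4PP. CT gave 0.20 ± 0.12 with CPD and 0.23 ± 0.10 with 6-4PP. CC gave -0.16 ± 0.12 with CPD and 0.31 ± 0.12 with 6-4PP, and it was above 0 in 3 of 27 libraries with CPD and in 26 of 27 with 6-4PP. Thus TT stood first with CPD and TC with 6-4PP, and in this fit CC lay on opposite sides of 0.

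On the difference itself, TT had an effect of 0.30 ± 0.18 per step, above 0 in 27 of 27 libraries. TC had -0.72 ± 0.14 and CC -0.46 ± 0.09, and each was below 0 in 27 of 27 libraries. CT had -0.03 ± 0.12, above 0 in 16 libraries and below 0 in 11, which is within the spread between libraries. As folds of intensity per step, TT gave 1.67 with CPD and 1.58 with 6-4PP, and TC gave 1.18 and 2.06. The TT folds were thus close. The TT effect on the difference rests in large part on scaling by array SDs of 0.78 and 1.02 in log2. In SD units TT minus TC was 0.65 ± 0.21 per step with CPD and -0.38 ± 0.13 with 6-4PP, with the same sign in 27 of 27 libraries on each array. On the non-UV arrays TT minus TC was 0.69 SD units with CPD and 0.24 with 6-4PP, on scales where 1 SD unit is 0.23 and 0.28 of log2 intensity. On the non-UV difference TT had 0.54 per step, TC 0.09, CT -0.05 and CC -0.09. The part of the non-UV signal in the UV values was not tested beyond the ratio of the arrays, which is given among the other settings. The fit had an R squared of 0.63 for CPD, 0.55 for 6-4PP and 0.55 for the difference.

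Sequences with steps of a single kind showed the values without a fit. With 1 TT (154 sequences) the median intensity was 6278.75 with CPD, at percentile 73.1, and 10429.2 with 6-4PP, at percentile 29.6. With 1 TC (122 sequences) it was 3769.25 with CPD, at percentile 41.5, and 17224.2 with 6-4PP, at percentile 54.3. With 1 CT (170 sequences) it was 2668 with CPD, at percentile 21.4, and 5699.75 with 6-4PP, at percentile 6.08. With 1 CC (138 sequences) it was 2134.25 with CPD, at percentile 9.74, and 7710 with 6-4PP, at percentile 15.6. A single TT and a single CT thus stood higher with CPD, while a single TC and a single CC stood higher with 6-4PP. The median differences were 1.24 for TT, 0.63 for CT, -0.14 for CC and -0.21 for TC, and all 4 kinds are compared here on probes of 59 bases. Sequences without a dipyrimidine, of 60 bases, had 0.53. CT lay close to that value, TT above it, and TC and CC below it.

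The gap was wider with more steps of the same kind for TC and CC. Probes had 59 bases at odd and 60 at even numbers of steps, and libraries were not matched across these numbers. The median difference of TC sequences was -0.21 with 1 step, -0.95 with 2 and -1.51 with 3, where 5 of 8 sequences lay at the 6-4PP ceiling. For CC it was -0.14, -0.68, -0.91 and -1.34 with 1, 2, 3 and 4 steps. The CC sequences stayed at 2134.25, 2078.5, 2224 and 2063.5 with CPD, against 7710, 9618.5, 12777.8 and 17532 with 6-4PP. With 4 CC the median percentile was 8.43 with CPD and 55.2 with 6-4PP. CT sequences showed the opposite course, with differences of 0.63, 0.75 and 1.09 for 1, 2 and 3 steps. With 3 CT the median percentile was 43.2 with CPD and 9.44 with 6-4PP. TT sequences had differences between 1.19 and 1.46 at 1 to 4 steps. Their medians were 6278.75, 7724, 11981.2 and 10911.2 with CPD and 10429.2, 14225, 24144.2 and 19850.2 with 6-4PP, so 4 TT (14 sequences) lay below 3 TT on both arrays.

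**Figure D2:**
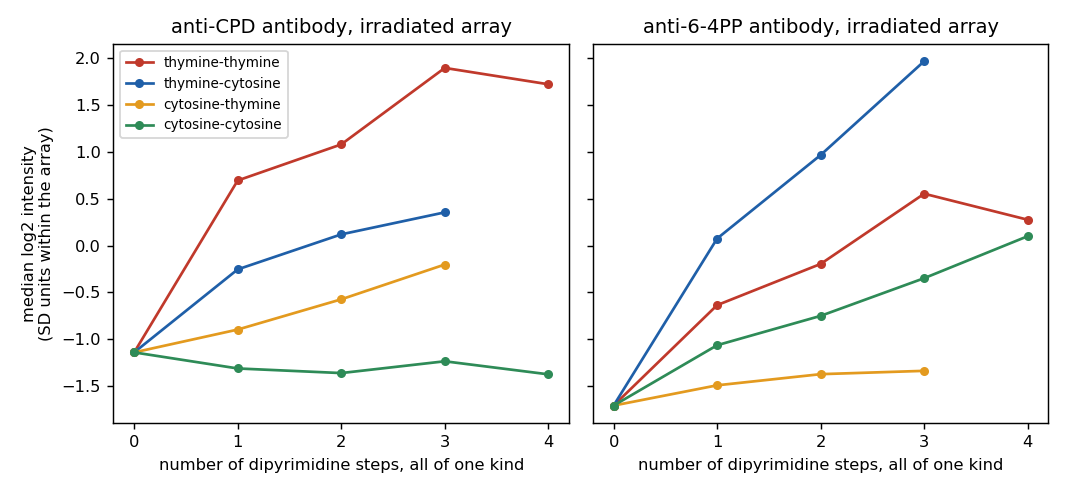
Median log2 intensity in SD units within the array against the number of steps in sequences with a single kind of dipyrimidine, with the anti-CPD antibody on the left and the anti-6-4PP antibody on the right; the point at 0 is the median of the 160 sequences without a dipyrimidine, and probes have 59 bases at odd and 60 at even numbers. The thymine-thymine line is highest with CPD and the thymine-cytosine line with 6-4PP, and the cytosine-cytosine line is flat with CPD and rises with 6-4PP.

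Sequences with 2 steps of different kinds gave these values. Those with 1 TT and 1 TC (278) had a median difference of 0.19, against 1.19 for 2 TT and -0.95 for 2 TC. TT with CC had 0.84 (166 sequences) and TT with CT had 1.04 (198 sequences). These groups were not matched by library or outer bases. TC with CC had -0.38 (326 sequences), TC with CT -0.05 (334 sequences) and CT with CC 0.06 (238 sequences). Touching and separate steps showed no common direction. Sequences with 2 TT inside a run of 3 pyrimidines (74) had a median difference of 1.10, and those with separate TT (69) had 1.35, with medians of 0.83 and 1.19 SD units with CPD and of -0.27 and -0.03 with 6-4PP. For 2 CC the run of 3 (98 sequences) had -0.76 and separate steps (113 sequences) had -0.57. With 3 TT the order was the other way, 1.45 in runs of 3 (16 sequences) and 1.495 in runs of 4 (22 sequences) against 1.31 for separate steps (6 sequences). With 3 CC it was -0.83 in runs of 3 (12 sequences) and -0.90 in runs of 4 (18 sequences) against -1.04 for separate steps (6 sequences).

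The difference was also read by the bases beside a lone dipyrimidine. Among the 16 contexts with a purine on either side, each with at least 18 sequences, the highest median differences were 1.57 for GTTG, 1.51 for GTTA and 1.24 for ATTG. GTTG had a median of 4967.5 with CPD, at percentile 58.8, and 6169 with 6-4PP, at percentile 8.47. Of its 18 sequences 11 lay at least 1 SD unit towards CPD, and of the 46 with GTTA 44 did. The lowest were -0.47 for ATCA, -0.43 for ACCA and -0.29 for ATCG. ATCA had a median of 4812.25 with CPD, at percentile 56.8, and 24390.8 with 6-4PP, at percentile 71.1. ATCA was thus raised with both antibodies, and further with 6-4PP.

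Pairs of lone dipyrimidines that differed only in the base 5′ of the step, A against G, were matched within library and 3′ base, with 16 pairs for each kind. Before TC, A in place of G went with a median 1.61-fold higher CPD intensity (14 of 16 pairs) and 2.76-fold higher 6-4PP intensity (16 of 16), and the difference changed by -0.52 ± 0.57 SD units (SD, 15 of 16 below 0). Before TT it went with 1.64-fold higher CPD and 2.09-fold higher 6-4PP intensity, each in 16 of 16 pairs, with a change of -0.09 ± 0.47 in the difference. Before CC the folds were 1.26 with CPD and 1.64 with 6-4PP, and before CT they were 1.18 and 1.30. The difference changed by -0.43 ± 0.48 before CC and by -0.04 ± 0.59 before CT, so that before each kind the median change was smaller than the SD between pairs. The median signal was higher with A on the 5′ side of each kind with both antibodies. On the 3′ side of CC the folds of A over G were 0.907 with CPD (5 of 16 above 1) and 1.19 with 6-4PP (14 of 16 above 1).

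Matched sequences that differ in the central bases alone gave the comparison of TT with TC at a fixed backbone and fixed outer bases. The most positive pair and the most negative pair below the ceiling, TT member first in each, are shown here. In the most negative pair the central dipyrimidine lies on the opposite strand.
TBP_E59_CTTA: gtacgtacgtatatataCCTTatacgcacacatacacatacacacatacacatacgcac
TBP_E59_CTCA: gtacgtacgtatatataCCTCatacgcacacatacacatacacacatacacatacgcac
TBP_E59_GAAC: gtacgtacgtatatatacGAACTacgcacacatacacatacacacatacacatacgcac
TBP_E59_GGAC: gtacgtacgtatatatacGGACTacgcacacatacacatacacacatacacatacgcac

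The library held 672 such pairs. The difference was higher in the TT member in 637 of them (94.8%), with a median change of 1.02 ± 0.70 SD units (SD over pairs) and library medians from 0.32 to 1.43 over 21 libraries. CPD intensity was higher in the TT member and 6-4PP intensity lower in 393 pairs, both were higher in 200, both were lower in 24, the opposite held in 4, and 51 were tied on an array. With CPD the TT member was brighter in 641 of 672 pairs. With 6-4PP it was dimmer in 417, and 101 pairs had a member at the ceiling. Where the outer base 3′ of the step was a pyrimidine, the exchange also changed the step overlapping the centre. Counts over all 672 pairs therefore mix exchanges. With purines outside on the strand of the step, the difference was higher in the TT member in 83 of 84 pairs on the listed strand. On the opposite strand it was higher in 80 of 84.

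The size depended on the strand and the outer bases. With purines outside and the step on the listed strand (84 pairs), TT over TC had a median fold of 2.02 with CPD (82 above 1). With 6-4PP it was 0.846 (54 below 1, 21 above 1, the rest tied). With the step on the opposite strand (84 pairs) the folds were 1.35 with CPD (73 above 1) and 0.801 with 6-4PP (73 below 1). On both strands some of these pairs had a member at the 6-4PP ceiling. Where only the TC member lay there the 6-4PP fold is an upper bound, and pairs with both members there count as tied. The 6-4PP folds and counts are therefore limited by the ceiling. In TBP_E59_CTTA against TBP_E59_CTCA the intensities were 9702 and 1727 with CPD, a fold of 5.62, and 28933.5 and 47865 with 6-4PP, a fold of 0.604. The difference changed by 3.92 SD units between them. The spots of TBP_E59_CTCA lay where the local median of the CPD UV array was 2818.5, against 4396.88 for the median sequence, and its difference was -3.23 unadjusted and -2.48 with the spatially adjusted intensity. In TBP_E59_GAAC against TBP_E59_GGAC the intensities were 3212 and 3248.5 with CPD, a fold of 0.989, and 16704 and 9813 with 6-4PP, a fold of 1.70. In that pair the outer G adds a step that overlaps the centre on the opposite strand, and the outer C forms a CT on the listed strand. TBP_E59_GAAC thus holds 1 TT, 1 TC and 1 CT, and TBP_E59_GGAC holds 1 TC, 1 CT and 1 CC. In make-up the pair sets a TT against a CC.

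**Figure D3:**
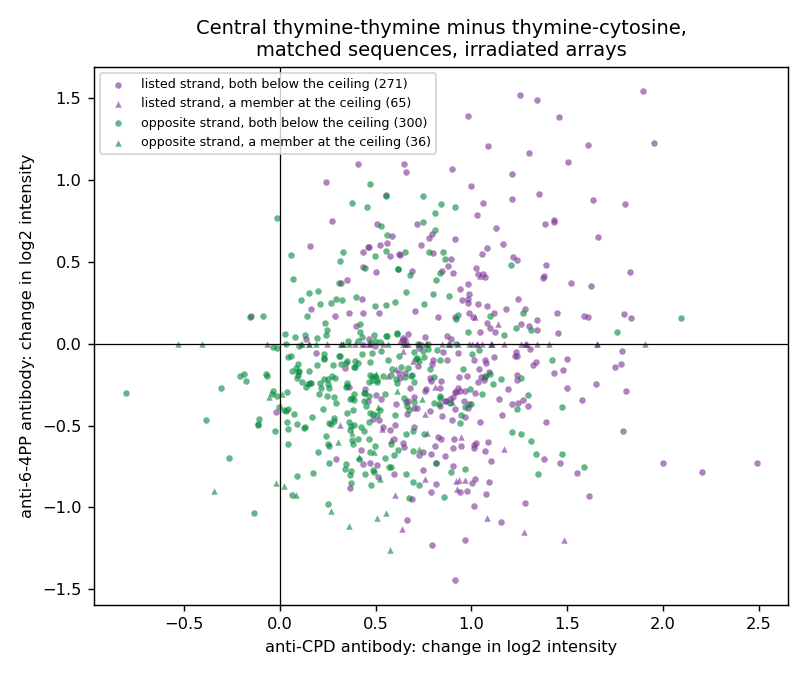
Change in log2 intensity between the thymine-thymine and the thymine-cytosine member of each of 672 matched pairs, with the anti-CPD antibody across and the anti-6-4PP antibody upward, coloured by the strand that holds the step; triangles are pairs with a member at the 6-4PP ceiling. Most points lie right of the vertical line at 0 (641 pairs), and 417 lie below the horizontal line.

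Other exchanges at the centre, with purines outside and on the listed strand, separated the antibodies to different extents. TT over CT had a median fold of 2.22 with CPD and 2.17 with 6-4PP, above 1 in 84 of 84 pairs on each array. TC over CT had 1.11 with CPD (57 of 84 above 1) and 2.42 with 6-4PP (84 of 84). TT over CC had 3.04 with CPD (84 of 84) and 1.87 with 6-4PP (82 of 84). TC over CC had 1.53 with CPD (73 of 84) and 2.18 with 6-4PP (84 of 84). Where the TC member lay at the 6-4PP ceiling, its 6-4PP folds over CT and over CC are lower bounds. CC over CT had 0.762 with CPD, above 1 in 9 of 84 pairs, and 1.12 with 6-4PP, above 1 in 61 of 84. In 55 of these 84 pairs CC was dimmer than CT with CPD and brighter with 6-4PP.

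The three-position libraries repeat the kinds on 3 backbones and both strands. The probes of the TBP backbone with the same kind at all 3 positions of the listed strand are shown, since they hold the brightest CPD sequence.
TBP_P6_TT&P12_TT&P18_TT: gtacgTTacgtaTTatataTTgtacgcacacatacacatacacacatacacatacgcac
TBP_P6_TC&P12_TC&P18_TC: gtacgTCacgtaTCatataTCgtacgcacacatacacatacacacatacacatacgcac
TBP_P6_CT&P12_CT&P18_CT: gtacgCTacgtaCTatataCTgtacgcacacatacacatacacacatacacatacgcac
TBP_P6_CC&P12_CC&P18_CC: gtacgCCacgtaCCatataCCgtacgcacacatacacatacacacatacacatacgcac

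In this set the TT probe had an intensity of 22435 ± 6124 with CPD and 48983 ± 9005 with 6-4PP (SD, 10 spots each). The TC probe had 4035 ± 2022 with CPD and stood at the ceiling of 65535 with 6-4PP. The CT probe had 5547.5 ± 1565 with CPD and 8869 ± 2475 with 6-4PP, where 9 spots were left. The CC probe had 1922 ± 878 with CPD and 17057 ± 1064 with 6-4PP. The order was TT, CT, TC and CC with CPD, and TC, TT, CC and CT with 6-4PP. The CT and TC probes were closer together with CPD than their spot SDs.

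Over 3 backbones and 2 strands (6 sequences per kind), the difference averaged 1.39 ± 0.47 SD units with TT and 1.14 ± 0.24 with CT (SD). It averaged -1.33 ± 0.59 with TC and -1.12 ± 0.32 with CC. Without a dipyrimidine it ran from 0.56 to 0.82 over the 3 backbones. TT minus TC at all 3 positions was 2.72 ± 0.92, from 1.47 to 3.60, and above 0 in 6 of 6. In 3 of the 6 the TC probe lay at the ceiling, so those values are lower bounds. The TT probes ran from percentile 71.5 to 99.99 with CPD and from percentile 35.3 to 91.5 with 6-4PP. The CT probes ran from percentile 29.8 to 69.0 with CPD and from percentile 6.51 to 22.3 with 6-4PP. The CC probes ran from percentile 1.66 to 17.3 with CPD and from percentile 21.9 to 53.7 with 6-4PP.

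**Figure D4:**
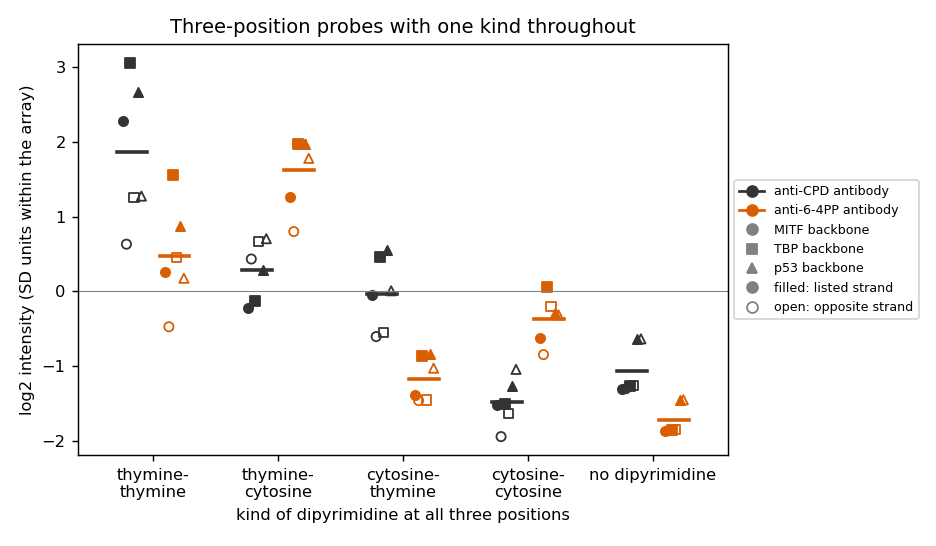
Log2 intensity in SD units within the array for probes with the same kind of dipyrimidine at all 3 positions, with the anti-CPD antibody at the left and the anti-6-4PP antibody at the right of each kind. Symbols are backbones, filled and open symbols are the listed and the opposite strand, and bars are means over 6 points. Without a dipyrimidine these points are 3 sequences, 1 per backbone, each drawn for both strands. Those sequences have 60 bases and the other kinds 59. Thymine-thymine and cytosine-thymine stand higher with CPD, as do probes without a dipyrimidine. Thymine-cytosine and cytosine-cytosine stand higher with 6-4PP.

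Effects at each position were taken from all 125 probes of each three-position library, relative to no dipyrimidine there. On the listed strand TT changed the CPD value by 1.45 ± 0.09, 1.64 ± 0.59 and 1.53 ± 0.58 SD units at positions 1, 2 and 3, and on the opposite strand by 0.77 ± 0.14, 1.15 ± 0.54 and 1.12 ± 0.29 (SD over 3 backbones). The 6-4PP value changed by 0.74 ± 0.42, 0.88 ± 0.49 and 0.76 ± 0.30 with TT on the listed strand, and by 0.37 ± 0.09, 0.68 ± 0.43 and 0.70 ± 0.42 on the opposite strand. On the difference, TT had 0.71, 0.76 and 0.77 on the listed strand and 0.39, 0.47 and 0.41 on the opposite strand. TC had -0.65, -0.74 and -0.84 on the listed strand and -0.35, -0.55 and -0.81 on the opposite strand. TT stood above TC, CT above TC, CT above CC and TT above CC at 18 of 18 combinations of backbone, strand and position, and TT above CT at 16 of 18. TC stood above CC at 2 of 18. Over the 18 combinations CC changed the CPD value by 0.003 ± 0.22 SD units (SD), above 0 at 10. It changed the 6-4PP value by 0.38 ± 0.19, above 0 at 18. On the difference CT had 0.24 ± 0.14, above 0 at 17, while the fit over all sequences gave -0.03 ± 0.12.

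The sequences printed first can now be read with their values. TBP_MUT_59_TTTT, with 3 TT in a run, had 18295 ± 3874 with CPD, at percentile 99.8, and 21291.5 ± 9190 with 6-4PP, at percentile 64.4 (SD, 10 spots each), and a difference of 2.31 ± 0.23 (spot standard error). TBP_59_ATTT, with 3 TT on both strands together, had 21657.5 with CPD and 27570.5 with 6-4PP and a difference of 2.26. p53_E_mut_60_TGCT, with 1 TT and 1 CT, had 8056 with CPD, at percentile 86.4, and 7943.5 with 6-4PP, at percentile 16.7. p53_E60_GTTG, with 1 TT and 1 TC, had 8825.5 with CPD and 9103.5 with 6-4PP and a difference of 2.16. Its TT and its TC both have G on the 5′ side. TBP_P6_CT&P12_TT&P18_TT had 21816 with CPD and 30733.5 with 6-4PP and a difference of 2.12. The 3 TBP probes lay above percentile 99 with CPD, whereas p53_E60_GTTG lay at percentile 90.2 with CPD and 22.5 with 6-4PP. The local median of the CPD UV array at these 5 lay between 4416.75 and 5580.5, above the 4396.88 of the median sequence. With the spatially adjusted intensity their differences were 2.16, 2.27, 1.92, 1.70 and 2.08 in the order printed. None of them was among the 5 highest adjusted differences.

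The sequences farthest towards 6-4PP rested in part on dim spots of the CPD UV array. TBP_MUT_E59_CCGA, with 1 TC and 2 CC, had 1041.5 with CPD, its spots running from 599 to 6492, and 42460 ± 5296 with 6-4PP (SD, 9 spots), and a difference of -3.999. MITF_ebox_59_GGCG had 1089.5 with CPD and 27756.5 with 6-4PP and a difference of -3.31. MITF_ebox_60_GTAT had 2025 with CPD and 58845.5 with 6-4PP, and MITF_Ex_sebox_60_TCAT had 1655 with CPD and 44309.5 with 6-4PP. The local median of the CPD UV array at these and TBP_E59_CTCA lay between 2047 and 3446.25, below the 4396.88 of the median sequence. With the spatially adjusted intensity the differences were -2.83 for TBP_MUT_E59_CCGA, -1.82 for MITF_ebox_59_GGCG, -2.34 for MITF_ebox_60_GTAT and -2.03 for MITF_Ex_sebox_60_TCAT. They kept their direction and were smaller. At the ceiling MITF_sebox_60_AGCC had a difference of at most -4.21, MITF_Ex_ebox_60_CCCG of at most -3.17 and MITF_ebox_59_GGTG of at most -3.16.

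Across all sequences, the local median of the CPD UV array correlated with the difference at a rho of 0.22 before and -0.07 after the deposited adjustment, and the difference before and after correlated at 0.93. With adjusted intensity 787 sequences lay at least 1 SD unit towards CPD and 840 towards 6-4PP. Of the unadjusted calls 584 of 766 (76.2%) and 632 of 780 (81.0%) were shared, which is 74.2% and 75.2% of the adjusted ones. A ranking by adjusted intensity, chosen after the values were seen, placed the first 2 of these sequences at places 1 and 2 towards CPD and the last 2 at places 2 and 3 towards 6-4PP.
MITF_Ex_sebox_59_GTTG: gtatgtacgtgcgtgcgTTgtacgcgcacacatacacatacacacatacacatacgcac
TBP_59_TTTT: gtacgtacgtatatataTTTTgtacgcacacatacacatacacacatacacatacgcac
MITF_sebox_60_ACCT: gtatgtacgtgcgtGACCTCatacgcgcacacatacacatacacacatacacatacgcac
TBP_MUT_E60_CTCG: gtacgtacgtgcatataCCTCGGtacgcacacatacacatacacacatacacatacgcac
MITF_Ex_sebox_59_GTTG, with a lone TT between G, had an adjusted difference of 2.78, and TBP_59_TTTT had 2.73. Towards 6-4PP TBP_MUT_E59_CCGA came first at -2.83, followed by MITF_sebox_60_ACCT at -2.73 and TBP_MUT_E60_CTCG at -2.71. The top sequences of either ranking towards CPD held TT, and those towards 6-4PP held TC beside CC or CT.

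The 3 sequences printed as high on both arrays, chosen below the ceiling, held 2 TT, each with A or C on its 5′ side. They do not stand for all sequences high on both. Of the 147 among the brightest 10% of both arrays 75.5% held a TC, and 72 lay at the ceiling. MITF_Ex_sebox_59_TTAT had 14509 ± 2231 with CPD and 60712 ± 9568 with 6-4PP (SD, 10 spots each). TBP_E59_CAAT had 16092.5 with CPD and 57755 with 6-4PP, and TBP_MUT_E59_TAAT had 15170 with CPD and 56176 with 6-4PP. Each lay above percentile 99 with CPD and near percentile 93 with 6-4PP, where 3 or 4 of the 10 spots were at the ceiling. The dimmest on both were probes of the TBP backbone without a dipyrimidine. TBP_E60_GCGT had 983 with CPD and 3237.5 with 6-4PP, TBP_60_TACG had 972.5 with CPD and 3569.5 with 6-4PP, and TBP_60_CGCG, also printed as TBP_E60_GCGC, had 1257.5 with CPD and 3563 with 6-4PP. The spots of TBP_E60_GCGT and TBP_60_TACG lay where the local median of the CPD UV array was 2559.75 and 2572, against 4396.88 for the median sequence. Their adjusted CPD intensities were 1755 and 1862, at percentiles 0.502 and 1.21.

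Libraries as a whole were shifted as well. The median difference ran from -0.54 in MITF_ebox_60 to 0.76 in p53_E60, and it was -0.61 and 0.81 with the spatially adjusted intensity. The p53 libraries had non-UV median differences of 1.02 to 1.43, against -0.25 over all sequences. Over all sequences the UV and non-UV differences correlated at a rho of 0.31. Of the 766 sequences towards CPD 68.1% had the same sign on the non-UV arrays, and of the 780 towards 6-4PP 75.3%, against 60.2% of all sequences. The part of the non-UV difference in these shifts was not tested.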

How the data were processed

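Antibody signal was measured on arrays of synthetic probes, 1 array per antibody and condition. The deposited files hold spot intensity on a linear scale for the Alexa label, per the file headers, with flagged spots left empty by the authors, and a spatially adjusted intensity that equals intensity times the array median over the local median. The Cy3 column was 1 throughout, and no correction for the amount of DNA was made. Neither scanner settings nor upstream software are given in the labels or file headers used here.

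The median of unflagged spots per sequence was taken as log2 and put in SD units within the array. Dipyrimidines were counted on both strands without the 10 bases that all probes share at the 3′ end. Type effects came from least squares over 5480 sequences and again within each library, and the calculation was tested on simulated data. Named sequences were the 5 highest and 5 lowest differences and the 3 highest and 3 lowest mean percentiles below the ceiling with at least 5 spots, the extreme TT and TC pairs, the three-position sequences with a single kind, the extreme contexts, and the 3 lowest differences at the ceiling. Members and lists were chosen with earlier results of these data known. No p-value was computed. Errors are spots of an array, pairs or libraries, and cover neither repeat irradiation nor repeat hybridisation. Alternatives were adjusted intensity, mean of spots, flagged spots kept, other scalings, sequences at the ceiling or p53 libraries left out, UV over non-UV ratio, the 6-4PP array by title, the listed strand alone and the whole probe. Python 3.11.15, numpy 2.4.6, pandas 2.3.3, scipy 1.17.1 and matplotlib 3.10.9 were used.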

Additional observations from a re-analysis of the deposited data

Results flagged for a closer look

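The effect of TT minus TC per step had opposite signs on the irradiated arrays, 0.65 SD units with CPD and -0.38 with 6-4PP, with the same sign in 27 of 27 libraries on each. In the same fit the effect of CC per step also had opposite signs, -0.16 with CPD and 0.31 with 6-4PP. In the three-position libraries CC gave 0.003 ± 0.22 with CPD, above 0 at 10 of 18 combinations of backbone, strand and position. With 6-4PP it gave 0.38 ± 0.19 there, above 0 at 18 of 18. With 1 array per antibody these differences were not tested.

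Spots outside the library gave signal on the irradiated arrays. The 1319 control spots with an identifier had a median intensity of 60517 with CPD and 65535 with 6-4PP on irradiated DNA, where 47.6% and 99.2% of them lay at the ceiling. On the non-UV arrays their medians were 78 with CPD and 49 with 6-4PP. The 397 spots with no identifier had a median of 2903 with CPD and 18025 with 6-4PP on irradiated DNA, and of 28 with CPD and 30 with 6-4PP without irradiation. The irradiated medians lay above those of 25.9% of the library sequences with CPD and of 56.5% with 6-4PP.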

How the results depend on the processing

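With 1 array per antibody, no replicate array could be left out, and the precision is limited by the number of arrays. No paired analysis was possible because each group held 1 array and the labels share no replicate numbers. Of the summary values under other settings 122 stayed within the spread or within 1.5 times the count, 21 moved further and 3 turned. Mean of spots, flagged spots kept, percentile ranks, the ceiling or p53 libraries left out changed none of them beyond that, and the whole probe gave identical values because the shared end holds no dipyrimidine. Spatial adjustment moved the single TT difference to 1.32 and single TC to -0.38, and median and MAD scaling moved single TT to 1.07. On linear intensity the effects were 0.49 for TT and -0.30 for CC, the single differences 1.09 for TT and 0.13 for CT, and three-position TT minus TC 4.61. With the UV over non-UV ratio single TT was 1.47 and single TC -0.046. With the listed strand alone the effect of TT was 0.58, single TC was -0.57, and CT turned to 0.12 from a value within its spread of 0.

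With the 6-4PP array chosen by its title, which puts the dim array in place of the bright one, rho was 0.10, and 1262 sequences lay towards CPD and 1396 towards 6-4PP. The effects were then 0.82 for TT, 0.41 for TC (turned) and -0.22 for CC, the single differences 0.24 for TT, -0.71 for TC, -1.19 for CT (turned) and -1.57 for CC, and three-position TT minus TC 1.06. The differences of MITF_P6_CT&P12_CT&P18_CT at -0.74, TBP_P7_GA&P13_GA&P_19_GA at 0.74, p53_P6_TC&P12_TC&P18_TC at 1.67 and P53_P7_GA&P13_GA&P_19_GA at 2.69 turned too. The cause was not tested. Of 444 values of named sequences under all settings 394 stayed within their spot SD, 46 moved without turning and the 4 above turned. Intensity at the ceiling bounds the 6-4PP side for 309 sequences.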
